A study of Mus musculus with 16 samples.

Results

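The genes described here encode the scaffold of the sarcomere and the machinery that couples membrane excitation to calcium release in skeletal muscle. The 41 genes were chosen by name, as genes of the Z-disc, thin filament, M-band, triad and calcium store whose name was carried by at least 1 probe of the array, out of 34836 gene names on it. All 41 were found, with 57 probes, and 40 of them were among the 20317 genes bright enough to be tested (median log2 signal of at least 5 over the 16 arrays). Lmod2 was below that level and is described by its values on each array.

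Samples were primary mouse satellite cell-derived myoblasts, the progeny of muscle stem cells, from male C57Bl/6J mice of 11 to 13 weeks. Myofiber-associated cells had been grown on explanted muscle fibers and then detached with trypsin, whereas dispersed cells had been grown on gelatin-coated dishes without fibers. Each culture was sampled at 48 and 72 hr, giving 4 groups of 4 arrays each, with no transgene, deletion or drug in any group. A myofiber-associated preparation came from 2 mice and a dispersed one from 1 mouse, and 1 myofiber-associated array at 48 hr held a pool of 2 preparations (replicate 10+11). The preparations are separate samples in the labels, and every comparison below is over arrays.

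A muscle fiber contracts when actin and myosin filaments slide past each other and its sarcomeres shorten. At each end of a sarcomere the Z-disc anchors the actin filaments, in its middle the M-band holds the myosin filaments in register, and the giant proteins titin and nebulin set lengths and positions. A voltage sensor in the transverse tubule touches a calcium release channel in the sarcoplasmic reticulum, at a junction called the triad, and pumps and binding proteins then return and hold the calcium. Many of these genes are switched on during terminal differentiation, whereas desmin is already made in myoblasts, and most of their transcripts are abundant in mature fibers.

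Promoter sequences were available for 26 of the 41 genes, from RefSeq's table on GRCm38.p6. The 250 bases before the first listed start site of 6 genes are shown, because these are the matched genes with the largest called rises (Myom3, Ryr1 and Jph2) and falls (Mybpc2, Cmya5 and Pvalb) in dispersed cells. They lie at chr4:135759465-135759714 (plus strand), chr7:29125152-29125401 (minus strand), chr2:163397994-163398243 (minus strand), chr7:44524670-44524919 (minus strand), chr13:93144725-93144974 (minus strand) and chr15:78206401-78206650 (minus strand). Each sequence runs 5′ to 3′ on the strand of the gene, and capitals mark an E-box (CANNTG), a MEF2 site, a CArG box or an M-CAT motif (CATTCC), searched on both strands and allowed to overlap.
Myom3: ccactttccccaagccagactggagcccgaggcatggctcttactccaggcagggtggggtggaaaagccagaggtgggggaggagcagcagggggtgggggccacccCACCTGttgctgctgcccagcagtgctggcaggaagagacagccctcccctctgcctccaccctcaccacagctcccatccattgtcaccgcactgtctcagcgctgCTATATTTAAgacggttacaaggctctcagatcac
Ryr1: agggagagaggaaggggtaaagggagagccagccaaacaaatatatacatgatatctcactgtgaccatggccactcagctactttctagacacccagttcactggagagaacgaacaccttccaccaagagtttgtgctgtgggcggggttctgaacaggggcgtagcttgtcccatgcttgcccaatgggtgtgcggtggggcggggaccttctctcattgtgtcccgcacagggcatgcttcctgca
Jph2: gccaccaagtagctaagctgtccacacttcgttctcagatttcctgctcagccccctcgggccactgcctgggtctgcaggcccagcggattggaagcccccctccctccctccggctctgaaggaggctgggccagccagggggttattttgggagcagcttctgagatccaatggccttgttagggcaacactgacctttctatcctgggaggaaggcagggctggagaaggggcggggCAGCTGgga
Mybpc2: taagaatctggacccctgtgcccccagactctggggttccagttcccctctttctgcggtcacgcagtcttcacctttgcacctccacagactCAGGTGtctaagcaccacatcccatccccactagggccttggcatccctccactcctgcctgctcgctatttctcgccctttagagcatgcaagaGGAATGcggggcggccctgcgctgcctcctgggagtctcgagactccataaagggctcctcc
Cmya5: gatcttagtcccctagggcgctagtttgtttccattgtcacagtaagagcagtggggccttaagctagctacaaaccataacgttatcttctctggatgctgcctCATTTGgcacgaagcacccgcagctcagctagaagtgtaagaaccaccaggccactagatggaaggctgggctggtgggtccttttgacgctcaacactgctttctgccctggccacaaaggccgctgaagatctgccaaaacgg
Pvalb: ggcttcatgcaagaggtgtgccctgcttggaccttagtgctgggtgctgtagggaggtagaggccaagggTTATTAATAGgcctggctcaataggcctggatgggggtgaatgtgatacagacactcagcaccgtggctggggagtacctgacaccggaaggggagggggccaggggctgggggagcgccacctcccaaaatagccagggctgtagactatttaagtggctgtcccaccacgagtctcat
An E-box, the core bound by myogenic regulatory factors, was present in 22 of the 26 windows (84.6%) and in 66% of the 27025 windows of this length in the table. A match to the MEF2 site was found in 6 of the 26 (Myoz2, Xirp2, Ttn, Myom3, Casq2 and Pvalb, 23.1%) and in 3.01% of all windows. The CArG box was found before Ldb3, Acta1 and Myom1 (11.5%, against 1.4%), and the M-CAT motif before Acta1, Mybpc2, Myl1 and Cacna1s (15.4%, against 12.6%). Of the 6 sequences shown, Myom3 held 1 E-box and 1 MEF2 site, Pvalb held 1 MEF2 site, Mybpc2 held 1 E-box and 1 M-CAT, Jph2 and Cmya5 held 1 E-box each, and Ryr1 held no match. These are matches of letters and not measured sites.

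Between 55.2% and 64.3% of the gene spots of an array were well above background, and no spot was saturated. The 7 myoblast markers were well above background on all arrays. From 48 to 72 hr, 3 of them rose in myofiber-associated cells (median 0.63) and 1 in dispersed cells (median 0.19). Of the 19 adult muscle fiber markers, 18 or 19 were above it on dispersed arrays at 72 hr and 19 on the other arrays. Each culture had a slide of its own, and differences between cultures and between slides cannot be told apart. Arrays of 72 hr occupied columns 1 and 2 of their slide and arrays of 48 hr columns 3 and 4, so that time and slide column are also confounded and cannot be told apart. Arrays were assigned to slides by the scan date in the headers of the scanner output, which differed between the cultures. Slide row and column were read from the digits that end the names of the scanner output, since the labels give no slide position.

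Myofiber-associated arrays at 72 hr stood apart from each other. In 37 of the 40 genes, replicates 1 and 3 (slide column 1) were both below replicates 2 and 4 (slide column 2), with Csrp3, Myom3 and Stac3 as the exceptions, and the same held for 24.9% of all genes tested. The median gap between the columns was 2.08 on the log2 scale for the 40 genes and -0.07 for all genes. Of the 19 adult muscle fiber markers, 14 had the same order, with a median gap of 1.79. Set against the 48 hr mean of the same culture, the median of the 40 genes was -2.49 and -3.05 on replicates 1 and 3, and -0.98 and -0.62 on replicates 2 and 4. The median SD of the 40 genes between these 4 arrays was 1.23, against 0.18 over all genes tested. At 48 hr the pooled array (replicate 10+11) was the lowest of its group for 35 of the 40 genes, as it was for 39.5% of all genes. The dispersed groups were tighter, with a median SD of 0.393 at 48 hr and 0.341 at 72 hr, against 0.0949 and 0.102 over all genes tested. Dispersed replicate 1 was the highest 48 hr array for 28 genes (34.3% of all genes), and replicate 4 the lowest for 26 (27.4%).

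**Figure D1:**
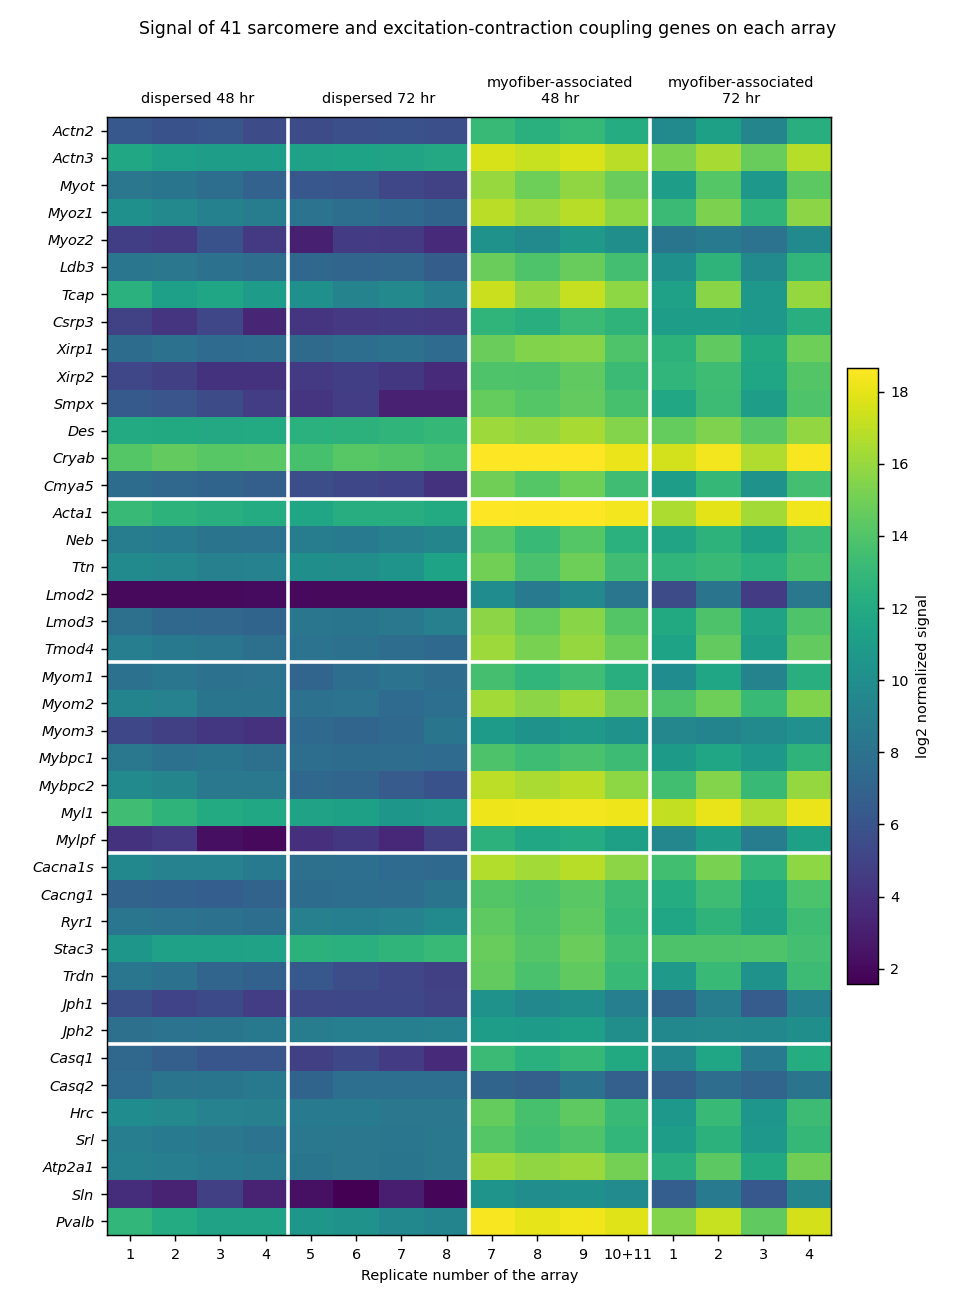
Log2 normalized signal (color) of the 41 genes (rows, with horizontal white lines between Z-disc and costamere, thin and giant filament, M-band and myosin-associated, triad, and calcium store genes) on the 16 arrays (columns, by group and replicate number). The myofiber-associated arrays are brighter for nearly every gene, and at 72 hr their replicates 1 and 3 are dimmer than replicates 2 and 4 for 37 of the 40 tested genes.

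Levels were compared first between the cultures at each time. At 48 hr, 39 of the 40 genes were higher in myofiber-associated than in dispersed cells by limma's moderated test with Benjamini-Hochberg adjustment over all genes (adjusted p under 0.01), against 19.1% of all genes called higher and 32.5% called lower. The median difference was 6.12 on the log2 scale, over a median of -0.12 for all genes. Xirp2, Csrp3, Mylpf, Sln and Myoz2 had dispersed means below 5 at both times, so they passed the signal filter only through the myofiber-associated arrays. With no filter on low signal all 39 were still called higher at 48 hr, against 12.4% of all genes. Among the 39 called genes, the smallest difference was 2.69 ± 0.23 (SE), for Jph2, which tethers the reticulum to the transverse tubule. The largest was 9.36 ± 0.44, for Xirp2, an actin-binding Xin repeat protein. The size of the Xirp2 difference is uncertain, since only 2 of its 4 dispersed spots at 48 hr were well above background, and with normexp background correction it was 7.47. For Mylpf (8.78 ± 0.62) a further probe, assigned to it by a later annotation release, gave 0.32 ± 0.56 at 48 hr and 0.45 ± 0.56 at 72 hr. For Cmya5 (7.18 ± 0.60) a second probe gave 2.22 ± 0.25 at 48 hr. Further tested probes of other genes gave 4.65 to 8.66 at 48 hr. At 72 hr, 38 genes were called higher, against 12.9% of all genes called higher and 18.4% called lower, and the median difference was 4.95. Of the 38, 36 were called under every alternative run for them, whereas Stac3 and Tcap were not. In 39 genes all 4 myofiber-associated arrays exceeded all 4 dispersed arrays at both times, as did 20.7% of genes at 48 hr and 20.4% at 72 hr. With only the column 1 arrays of the 72 hr myofiber-associated group the median at 72 hr was 3.68, and with only the column 2 arrays it was 5.93. In RNA from mixed cells, fewer cells of a type and less RNA per cell cannot be told apart. Per the labels, quality control of the preparations had found no fiber RNA in them. Whether fiber RNA was carried over was not tested here. Of 19 adult muscle fiber markers, 17 were called higher in myofiber-associated cells at 48 hr, with a median difference of 5.36.

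Adult muscle fiber markers moved with this difference. Besides the 17 of 19 at 48 hr, 14 were called higher in myofiber-associated cells at 72 hr, with a median difference of 4.76. The log2 of their summed signal was 20.9 to 21.3 on myofiber-associated arrays at 48 hr and 16.6 to 17.1 on dispersed arrays. At 72 hr it was 19.1 to 20.9 and 16.5 to 16.7. Early differentiation markers moved too, with 6 of 10 called higher and 3 lower in myofiber-associated cells at 48 hr (median 1.84) and 6 higher and 0 lower at 72 hr (median 1.58). Among them Myog, the factor that starts terminal differentiation, was at 6.05 ± 0.43 (SD, n = 4) on dispersed and 14.30 ± 0.48 on myofiber-associated arrays at 48 hr, a difference of 8.25 ± 0.38 (adjusted p = 4.11e-09). Markers of other cells differed as well at 48 hr. In myofiber-associated cells 5 of 6 smooth muscle and pericyte markers (median -3.96), 6 of 7 endothelial markers (-2.79), 3 of 3 Schwann cell markers (-2.41) and 4 of 7 myoblast markers (-0.63) were called lower. Of 5 leukocyte markers tested, 2 were called lower and 1 higher, and none of 6 fibroblast markers was called. At 72 hr 4 smooth muscle and pericyte, 6 endothelial, 3 Schwann cell, 3 fibroblast and 2 leukocyte markers were called lower, and 2 myoblast, 1 endothelial, 1 fibroblast and 1 leukocyte marker were called higher. No adult muscle fiber marker was shared with the 41 genes, and none was below background on a myofiber-associated array. The part of these markers in the result was not tested.

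Casq2 stood outside this pattern. It encodes the calsequestrin of the heart and of slow fibers, the calcium-binding protein of the reticulum. Its log2 signal was 7.51, 8.12, 8.23 and 8.45 on dispersed arrays at 48 hr and 7.10, 6.78, 7.97 and 6.81 on myofiber-associated arrays (replicates 7, 8, 9 and 10+11). The ranges overlapped and the difference was -0.91 ± 0.33 (adjusted p = 0.0243). At 72 hr it was 7.05, 7.79, 7.82 and 7.79 on dispersed arrays (replicates 5 to 8) and 6.75, 7.66, 7.12 and 8.17 on myofiber-associated ones, a difference of -0.19 ± 0.33 (adjusted p = 0.664). Its paralog Casq1, the calsequestrin of fast fibers, differed by 6.05 ± 0.65 at 48 hr and 5.94 ± 0.65 at 72 hr and was called at both times. For Jph2 the difference of 0.78 ± 0.23 (adjusted p = 0.0115) at 72 hr was not called, although the 4 myofiber-associated values were all higher.

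Lmod2, a leiomodin that nucleates actin filaments mainly in the heart, was not tested and is given by bounds. It was not well above background on any of the 8 dispersed arrays, with log2 signals of 2.02, 2.03, 2.03 and 2.05 at 48 hr and 2.04, 2.04, 2.01 and 2.001 at 72 hr. On myofiber-associated arrays it was 9.86, 8.69, 9.59 and 8.31 at 48 hr and 5.48, 8.13, 4.54 and 8.43 at 72 hr. Its signal was 135-fold higher in myofiber-associated cells at 48 hr and 24.7-fold higher at 72 hr. These bounds take, on each dim array, the higher of the probe's own signal and the lowest signal well above background. For Lmod2 they rest on the probe's own dim signal (means of 2.03 and 2.02), so they are not firm lower limits. The bound at 72 hr was 40.1-fold without myofiber-associated replicate 3, 16.3-fold without replicate 4, 7.93-fold with only the column 1 arrays and 76.6-fold with only the column 2 arrays. Sln, the small peptide that restrains the calcium pump, was not well above background on any dispersed array at 72 hr. By the same kind of bound it was 43.3-fold higher in myofiber-associated cells then (adjusted p = 4.95e-06). This was 18-fold with only the column 1 and 104-fold with only the column 2 arrays.

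The change from 48 to 72 hr was then measured within dispersed culture. Of the 40 genes, 7 rose and 11 fell by limma's test on the 8 dispersed arrays, against 7.38% of all genes called higher and 6.32% called lower. The median change was -0.46 on the log2 scale, against 0.02 for all genes tested. In 8 genes all 72 hr arrays exceeded all 48 hr arrays and in 17 all were lower, as for 17.5% and 13.6% of genes. The number of falls depended on the setting. At an adjusted p under 0.05 it was 16, against 2410 of the 20317 genes tested. Leaving out 1 array in turn gave 1 to 9 (1 without 48 hr replicate 2 or 72 hr replicate 7). No filter on low signal gave 2 (2.82% of all genes), and 1 fit of all 16 arrays gave 0 (2.98%). The rises numbered 5 to 7 with 1 array left out, 2 in the 16-array fit (1.94%) and 8 at an adjusted p under 0.05 (3051 of the 20317 genes). Among single genes, Myom3 and Stac3 were called under each of the 17 alternatives run. Des, Cacng1, Ryr1 and Cacna1s were lost only in the 16-array fit, which shares the wider spread of the myofiber-associated arrays. The rise of Jph2 was called under 14 of the 17, and was lost in that fit and without 48 hr replicate 2 or 72 hr replicate 7. Of the other falls, Cmya5 was called under 14 of the 17, Mybpc2 under 11, Myot, Myoz1, Tcap and Hrc under 10 each, and Ldb3, Trdn and Casq1 under 8 each. With normexp background correction the log2 changes of Myom3 (1.52), Myot (-1.32), Cmya5 (-1.14), Trdn (-1.20) and Casq1 (-0.82) were each over 1.5 times smaller than the values given here.

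**Figure D2:**
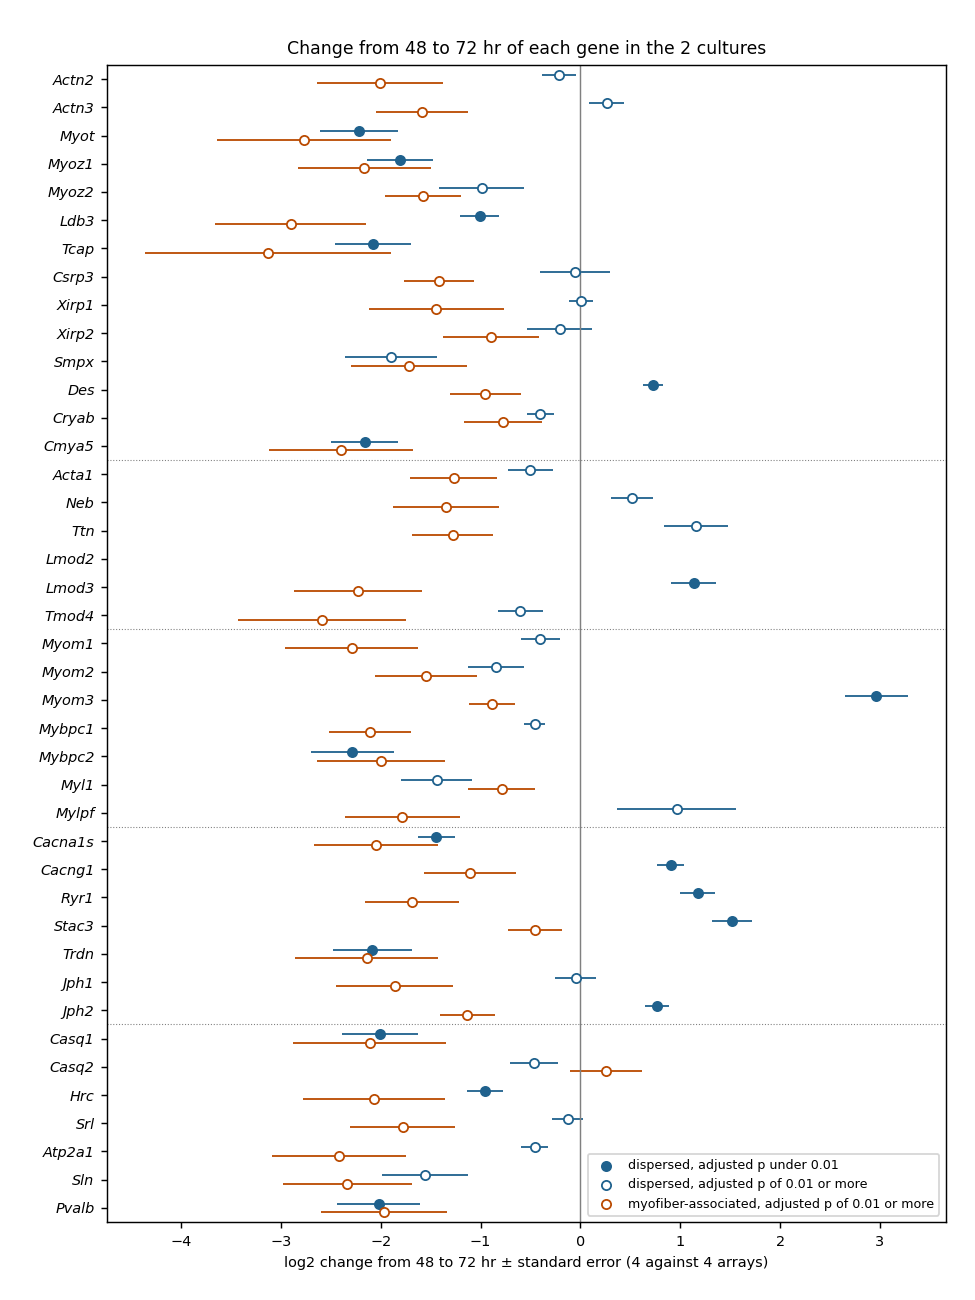
Log2 change from 48 to 72 hr with its standard error for each gene in dispersed (blue) and myofiber-associated (orange) cells, 4 against 4 arrays. Filled points passed adjusted p under 0.01, and dotted lines separate the 5 roles in the order of the heat map. In dispersed cells 7 genes rose and 11 fell, while in myofiber-associated cells 39 of 40 values lie below 0 and none passed. Lmod2 was not tested.

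Triad genes divided into rises and falls. Of the 7, 4 rose (Stac3, Ryr1, Cacng1 and Jph2) and 2 fell (Trdn and Cacna1s), with a median change of 0.77. Over all genes, 7.38% rose and 6.32% fell. Stac3 encodes an adaptor that the voltage sensor needs for coupling to the release channel (probe at chr10:126945799-126945858, mm9). Its log2 signal on dispersed arrays was 10.63, 11.32, 11.32 and 11.41 at 48 hr and 12.54, 12.43, 12.74 and 13.06 at 72 hr. All 72 hr arrays were higher, by 1.52 ± 0.20 (adjusted p = 0.00124), a 2.87-fold rise. On myofiber-associated arrays it was 14.69, 14.10, 14.75 and 13.48 at 48 hr and 13.88, 13.86, 13.93 and 13.54 at 72 hr, and the ranges overlapped (-0.45 ± 0.27, adjusted p = 0.236).

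Ryr1 encodes the calcium release channel itself (probe at chr7:29788789-29789487, mm9). In dispersed cells its log2 signal was 8.25, 8.05, 8.02 and 7.76 at 48 hr and 9.02, 8.92, 9.15 and 9.69 at 72 hr. The times did not overlap, and the rise was 1.17 ± 0.18 (adjusted p = 0.00235), or 2.26-fold. In myofiber-associated cells it was 14.42, 13.88, 14.45 and 13.10 at 48 hr and 11.69, 12.68, 11.39 and 13.34 at 72 hr. The highest 72 hr value exceeded the lowest 48 hr value, and the change was -1.69 ± 0.47 (adjusted p = 0.0373).

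Both junctophilins hold the reticulum against the transverse tubule. Jph2 (probe at chr2:163163526-163163585, mm9) was at 7.90, 8.08, 8.20 and 8.46 at 48 hr and 8.77, 8.94, 8.94 and 9.08 at 72 hr, a rise of 0.77 ± 0.12 (adjusted p = 0.00275) with no overlap. Jph1 was at 5.67, 5.005, 5.39 and 4.71 and 5.21, 5.24, 5.26 and 4.87, with overlapping times and a change of -0.05 ± 0.20 (adjusted p = 0.893). On myofiber-associated arrays Jph2 was at 11.12, 11.01, 11.27 and 9.99 at 48 hr and 9.57, 9.62, 9.58 and 10.09 at 72 hr. Jph1 was at 10.32, 9.56, 10.09 and 8.96 and 7.08, 8.76, 6.57 and 9.08 there. The changes were -1.13 ± 0.28 (adjusted p = 0.025) and -1.86 ± 0.59 (adjusted p = 0.0531).

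Cacng1, the gamma subunit of the muscle L-type calcium channel, rose by 0.90 ± 0.13 (adjusted p = 0.00218) in dispersed cells. Cacna1s, the pore-forming subunit of the same channel and its voltage sensor, fell by 1.44 with an SE of 0.19 (adjusted p = 0.00121). Its means were 9.12 ± 0.36 (SD, n = 4) at 48 hr and 7.68 ± 0.23 at 72 hr, and a second probe gave -1.18 ± 0.17. Trdn, which anchors calsequestrin to the release channel, was at 8.27, 7.96, 7.16 and 6.86 at 48 hr and 6.28, 5.63, 5.19 and 4.82 at 72 hr in dispersed cells (probe at chr10:32919981-32920040, mm9). All 72 hr arrays were lower, with a change of -2.08 ± 0.40 (adjusted p = 0.00687), and a second probe gave -2.13 ± 0.32. On myofiber-associated arrays Trdn was at 14.57, 13.78, 14.46 and 13.16 at 48 hr and 10.75, 13.08, 10.28 and 13.29 at 72 hr, the latter on both sides of a gap of more than 2 log2 units between slide columns.

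Values below 0 were found in dispersed cells for all 7 genes of the calcium store, its pump and its buffer. That of Sln rests on spots mostly not well above background, so its sign is uncertain. Of the 7, 3 fell, against 6.32% of all genes, and the median, which includes Sln, was -0.96. Pvalb, a soluble calcium buffer of fast fibers, changed by -2.02 ± 0.42 (adjusted p = 0.00967). This call was kept under 3 of 17 alternatives. Casq1 was at 7.30, 6.76, 6.16 and 6.09 at 48 hr and 4.81, 5.24, 4.56 and 3.68 at 72 hr and changed by -2.01 ± 0.38 (adjusted p = 0.00675). This call was kept under 8 of 17 alternatives, and was lost with normexp (-0.82), with no filter on low signal, in the 16-array fit and without any 1 of the 48 hr arrays or 72 hr replicate 5 or 7. One of its 72 hr spots, replicate 8, was not well above background. On myofiber-associated arrays it was at 13.22, 12.41, 12.93 and 11.95 and 9.52, 11.71, 8.64 and 12.18, a change of -2.11 ± 0.76 (adjusted p = 0.0751). Hrc, a histidine-rich calcium-binding protein of the reticulum, changed by -0.96 ± 0.18 (adjusted p = 0.00636) in dispersed cells. The others did not pass: the fast-fiber calcium pump Atp2a1 (-0.46 ± 0.13, adjusted p = 0.0376), Casq2 (-0.47 ± 0.24, adjusted p = 0.199) and sarcalumenin, Srl (-0.13 ± 0.16, adjusted p = 0.598). Sln did not pass either (adjusted p = 0.03), and no fold is given for it, since only 1 of its 4 spots at 48 hr and none at 72 hr was well above background in dispersed cells.

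Among M-band and myosin-associated genes, 1 of 7 rose and 1 fell in dispersed cells, against 7.38% and 6.32% of all genes. The 3 myomesins cross-link myosin filaments at the M-band. Myom3, the myomesin of slow and intermediate fibers (probe at chr4:135371377-135371436, mm9), was at 5.26, 4.80, 4.37 and 3.99 on dispersed arrays at 48 hr and 7.40, 7.18, 7.44 and 8.25 at 72 hr. It rose by 2.96 ± 0.31 (adjusted p = 0.000447), or 7.79-fold, and 2 of its 48 hr spots (replicates 3 and 4) were not well above background. With normexp background correction the rise was 1.52 and was still called. In myofiber-associated cells it was at 10.98, 10.25, 10.72 and 10.38 at 48 hr and 9.50, 9.31, 9.74 and 10.24 at 72 hr. There all 72 hr values were lower (-0.89 ± 0.23, adjusted p = 0.0307).

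Myom1, the myomesin present in all striated muscle, was at 7.93, 8.25, 7.96 and 8.07 at 48 hr and 7.12, 7.74, 8.10 and 7.65 at 72 hr in dispersed cells. The times overlapped (-0.40 ± 0.19, adjusted p = 0.165). Myom2, which is typical of fast fibers and the heart, was at 9.30, 9.15, 8.22 and 8.15 and 7.95, 8.11, 7.57 and 7.83 (-0.84 ± 0.28, adjusted p = 0.0604). On myofiber-associated arrays Myom1 was at 13.60, 12.84, 13.41 and 12.35 at 48 hr and 9.85, 11.64, 9.23 and 12.31 at 72 hr, and Myom2 was at 16.32, 15.67, 16.31 and 15.13 and 13.90, 14.92, 13.06 and 15.39. Neither change was called (-2.29 ± 0.66, adjusted p = 0.0421, and -1.54 ± 0.51, adjusted p = 0.0595).

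Myosin binding protein C has a slow form, Mybpc1, and a fast form, Mybpc2. Mybpc2 (probe at chr7:51759105-51759164, mm9) was at 9.75, 9.32, 8.43 and 8.44 on dispersed arrays at 48 hr and 7.34, 7.16, 6.45 and 5.85 at 72 hr. All 72 hr arrays were lower, with a change of -2.28 ± 0.41 (adjusted p = 0.00549), or 4.87-fold. Mybpc1 was at 8.38, 7.95, 8.20 and 7.89 and 7.74, 7.62, 7.66 and 7.57, also without overlap, but its change of -0.46 ± 0.11 (adjusted p = 0.0169) did not pass. On myofiber-associated arrays Mybpc2 was at 16.96, 16.47, 16.92 and 15.78 at 48 hr and 13.51, 15.49, 13.16 and 15.95 at 72 hr. Mybpc1 was at 13.87, 13.36, 13.74 and 13.26 and 10.85, 11.58, 10.69 and 12.69 there. All Mybpc1 values at 72 hr were below those at 48 hr, and its change of -2.10 ± 0.41 (adjusted p = 0.0122) had the lowest adjusted p of the 40 genes in that culture.

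The fast essential light chain Myl1 did not pass, at -1.44 ± 0.36 (adjusted p = 0.02) in dispersed cells. For the fast regulatory light chain Mylpf the value was 0.96 ± 0.60 (adjusted p = 0.278), with only 3 of 8 dispersed spots well above background. A further probe that a later annotation release assigns to Mylpf gave 0.49 ± 0.26 in dispersed and 0.62 ± 0.69 in myofiber-associated cells, against -1.78 ± 0.57 for the probe used. The probes thus differed in sign in myofiber-associated cells.

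Thin filament and giant filament genes had the median change closest to that of the triad in dispersed cells, 0.52, and 1 of 5 rose. Over all genes, 7.38% were called higher. Lmod3, the leiomodin of skeletal muscle (probe at chr6:97188607-97188666, mm9), was at 7.86, 7.29, 7.20 and 7.06 at 48 hr and 8.27, 8.24, 8.40 and 9.04 at 72 hr. All 72 hr arrays were higher, by 1.14 ± 0.22 (adjusted p = 0.00812), a call kept under 7 of 17 alternatives. In myofiber-associated cells Lmod3 was at 15.69, 14.65, 15.61 and 14.12 at 48 hr and 11.96, 13.86, 11.39 and 13.93 at 72 hr (-2.23 ± 0.64, adjusted p = 0.0415).

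Titin, the spring that spans from Z-disc to M-band, did not pass: Ttn was at 1.16 ± 0.32 (adjusted p = 0.0317) in dispersed cells, and its 3 other probes gave 0.42 ± 0.37, 0.67 ± 0.18 and 0.54 ± 0.51. Nebulin, the ruler of the thin filament, was measured by 3 probes. The brightest gave 0.52 ± 0.21 (adjusted p = 0.106) and the others 1.36 ± 0.17 and 0.37 ± 0.20. Skeletal alpha-actin, Acta1, had a value of -0.50 ± 0.22 (adjusted p = 0.137), and Tmod4, which caps the pointed ends of actin filaments, had -0.60 ± 0.22 (adjusted p = 0.0822).

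Z-disc and costamere genes included 1 rise and 5 falls among 14, against 7.38% and 6.32% of all genes, with a median of -0.70. Des encodes desmin, the intermediate filament that links neighboring Z-discs, and was the one that rose (0.73 ± 0.10, adjusted p = 0.00154, with means of 11.95 ± 0.07 and 12.67 ± 0.21). The falls were in Myot, Cmya5, Tcap, Myoz1 and Ldb3. Myot encodes myotilin, which binds alpha-actinin, and was at 8.33, 8.18, 7.76 and 6.96 at 48 hr and 6.21, 6.09, 5.21 and 4.86 at 72 hr in dispersed cells. It fell without overlap (-2.22 ± 0.39, adjusted p = 0.00496). On myofiber-associated arrays it was at 16.003, 14.91, 15.80 and 14.72 and 11.18, 14.16, 10.66 and 14.37, with replicates 1 and 3 lowest.

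Cmya5, myospryn, a desmin-binding protein of the costamere (probe at chr13:93810830-93810889, mm9), was at 7.60, 7.34, 7.05 and 6.72 at 48 hr and 5.67, 5.29, 5.001 and 4.09 at 72 hr in dispersed cells. The last value was not well above background. All 72 hr values were lower, with a change of -2.16 ± 0.34 (adjusted p = 0.00282), and a second probe gave -1.35 ± 0.25. In myofiber-associated cells it was at 14.93, 14.16, 14.90 and 13.43 and 11.06, 12.95, 10.29 and 13.53. Tcap, telethonin, which caps the end of titin in the Z-disc, changed by -2.08 ± 0.38 (adjusted p = 0.00554) in dispersed cells. Ldb3, a PDZ and LIM protein that binds alpha-actinin, changed by -1.01 ± 0.19 (adjusted p = 0.00698), but its second probe, at chr14:35340222-35340281, gave 0.33 ± 0.17, of the opposite sign.

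The calsarcins tether calcineurin to the Z-disc. Myoz1, of fast fibers, was at 10.17, 9.60, 9.09 and 8.77 on dispersed arrays at 48 hr and 8.10, 7.77, 7.44 and 7.09 at 72 hr (-1.81 ± 0.33, adjusted p = 0.00547). Myoz2, of slow fibers and heart, was at 4.77, 4.48, 5.91 and 4.49 and 3.05, 4.53, 4.46 and 3.65 (-0.99 ± 0.43, adjusted p = 0.127), and 3 of these 8 spots were well above background. On myofiber-associated arrays Myoz1 was at 16.88, 16.17, 16.82 and 15.73 at 48 hr and 13.24, 15.31, 12.73 and 15.66 at 72 hr. Myoz2 was at 10.38, 9.65, 10.77 and 10.10 and 8.19, 8.63, 8.09 and 9.71 there. Both were lower at 72 hr on average without passing (-2.17 ± 0.67, adjusted p = 0.0496, and -1.57 ± 0.38, adjusted p = 0.024).

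The alpha-actinins cross-link actin in the Z-disc, and Actn3 is confined to fast fibers. On dispersed arrays Actn2 was at 6.25, 5.90, 6.13 and 5.44 at 48 hr and 5.51, 5.75, 5.90 and 5.71 at 72 hr. Actn3 was at 11.75, 11.23, 11.07 and 11.14 and 11.35, 11.45, 11.55 and 11.90. Neither changed past the threshold (-0.21 ± 0.17, adjusted p = 0.41, and 0.26 ± 0.17, adjusted p = 0.308). On myofiber-associated arrays Actn2 was at 13.12, 12.39, 13.04 and 12.17 at 48 hr and 9.71, 11.31, 9.32 and 12.34 at 72 hr. Actn3 was at 17.64, 17.23, 17.72 and 16.89 and 15.21, 16.39, 14.69 and 16.84. All 72 hr Actn3 values lay below all 48 hr values there.

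The Xin proteins Xirp1 and Xirp2 bind actin at sites of remodeling. In dispersed cells Xirp1 was at 7.58, 7.91, 7.53 and 7.71 at 48 hr and 7.50, 7.74, 7.96 and 7.55 at 72 hr, a difference of 0.0021 ± 0.12 (adjusted p = 0.992). Xirp2 was at 5.22, 4.79, 4.04 and 4.05 and 4.51, 4.77, 4.32 and 3.68 (-0.21 ± 0.32, adjusted p = 0.679). The times overlapped for both, and 5 of the 8 Xirp2 spots were well above background. On myofiber-associated arrays Xirp1 was at 14.78, 15.43, 15.52 and 13.98 at 48 hr and 12.63, 14.46, 11.96 and 14.89 at 72 hr, and Xirp2 was at 13.97, 13.88, 14.47 and 13.23 and 12.81, 13.33, 11.71 and 14.12. The remaining Z-disc genes did not pass in dispersed cells either: the chaperone Cryab (-0.40 ± 0.13, adjusted p = 0.0589), the LIM protein Csrp3 (-0.05 ± 0.35, adjusted p = 0.93) and Smpx (-1.90 ± 0.46, adjusted p = 0.019). In these cells 7 of 8 Csrp3 spots and 6 of 8 Smpx spots were well above background.

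**Figure D3:**
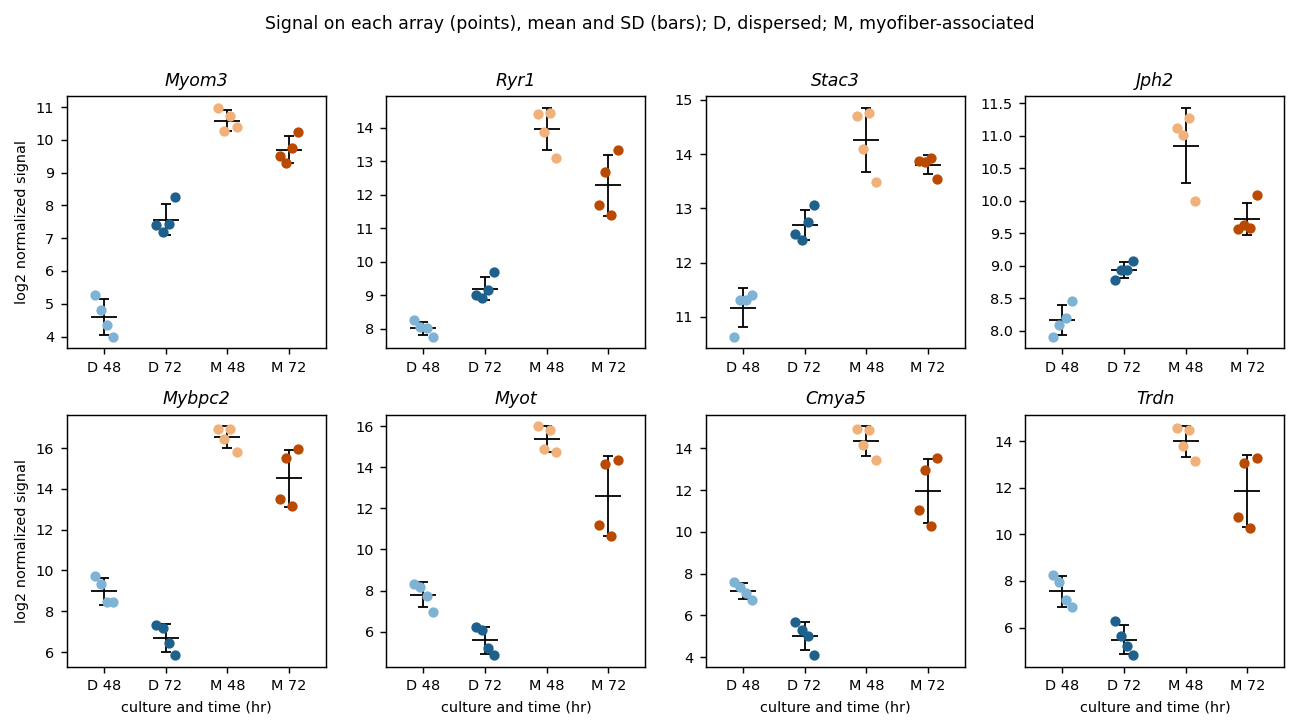
Log2 normalized signal of 8 genes on each array (points) with mean and SD (bars), by culture and time, each panel on its own axis. The top row holds the 4 genes whose change differed between the cultures, all higher at 72 than at 48 hr in dispersed cells. The bottom row holds the 4 called genes with the largest falls in dispersed cells, where no 72 hr value reaches a 48 hr value.

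Adult muscle fiber markers moved with the falls in dispersed cells: 8 of 19 were called lower and 2 higher, with a median of -1.53. Those that fell included the fast myosin Myh4 (-2.26 ± 0.46, adjusted p = 0.00886). The 2 that rose were the slow troponins Tnnt1 (2.34 ± 0.17, adjusted p = 9.5e-05) and Tnni1 (2.27 ± 0.21, adjusted p = 0.000254). Early differentiation markers were called higher in 6 and lower in 2 of 10 cases, and these included Myog (3.92 ± 0.24, adjusted p = 4.79e-05). Endothelial markers fell in 6 of 7 cases, Schwann cell markers in 3 of 3 and leukocyte markers in 1 of 5, smooth muscle and pericyte markers rose in 1 and fell in 1 of 6, and no fibroblast marker was called. The part of these lists in the result was not tested.

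In myofiber-associated culture, 39 of 40 genes had a value below 0 from 48 to 72 hr, but none passed. The calls over all genes were 3.74% higher and 1.74% lower. The median change was -1.78, against 0.06 for all genes tested, and the values ran from -3.13 ± 1.23 for Tcap to 0.26 ± 0.36 for Casq2, the one above 0. Quantile normalization gives arrays a shared top value, and Acta1 (18.54), Cryab (18.51) and Myl1 (18.27) lay near it at 48 hr. A dimmer probe gave a larger fall for Myl1 (-2.10, against -0.79) and Cryab (-1.33, against -0.77), but not for Pvalb (-1.89, against -1.96). By limma, 35 of the 40 had an unadjusted p under 0.05, as did 41.4% of all genes in either direction. At an adjusted p under 0.05, 16 were lower and none was higher, against 9.12% and 13.4% of all genes. When all 16 arrays were fitted together 20 were called lower, as were 11.8% of all genes. In 15 genes all 72 hr arrays were below all 48 hr arrays, as for 10.4% of all genes, and in none were all higher, as for 15.9%. With only the column 1 arrays at 72 hr, 29 genes were called lower (4.44% of all genes) with a median of -2.75. With only the column 2 arrays none was (0.0492% of all genes), and the median was -0.81. Leaving out 1 array in turn gave 0 to 3 calls, with 3 without 72 hr replicate 4 and 1 without 48 hr replicate 10+11.

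Median changes by role in myofiber-associated cells were -1.65 for the Z-disc, -1.35 for the thin and giant filaments, -1.78 for the M-band and myosin-associated genes, -1.69 for the triad and -2.07 for the calcium store. Adult muscle fiber markers were called lower in 3 of 19 cases, with a median of -2.12, and the log2 of their summed signal went from 20.9 to 21.3 at 48 hr to 19.1 to 20.9 at 72 hr. Fibroblast markers fell in 3 of 6 cases (median -1.49), endothelial markers in 5 of 7 (-1.63) and smooth muscle and pericyte markers in 1 of 6 (0.12). None of 5 leukocyte markers (-1.35) or 3 Schwann cell markers (-0.59) was called. Early differentiation markers were called higher in 4 of 10 cases, among them the embryonic myosin Myh3. It was not well above background on any of the 4 arrays at 48 hr. By 72 hr it was 106-fold above its own dim 48 hr signal (adjusted p = 0.00233), which is not a firm lower limit. On the 72 hr arrays Myh3 was at 10.98, 8.32, 11.54 and 7.89, so it was higher on replicates 1 and 3, where the sarcomere genes were lower. The rise of Myh3 was 69.3-fold without replicate 3, 161-fold without replicate 4, 318-fold with only the column 1 arrays and 35.6-fold with only the column 2 arrays. The part of these markers in the result was not tested.

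**Figure D4:**
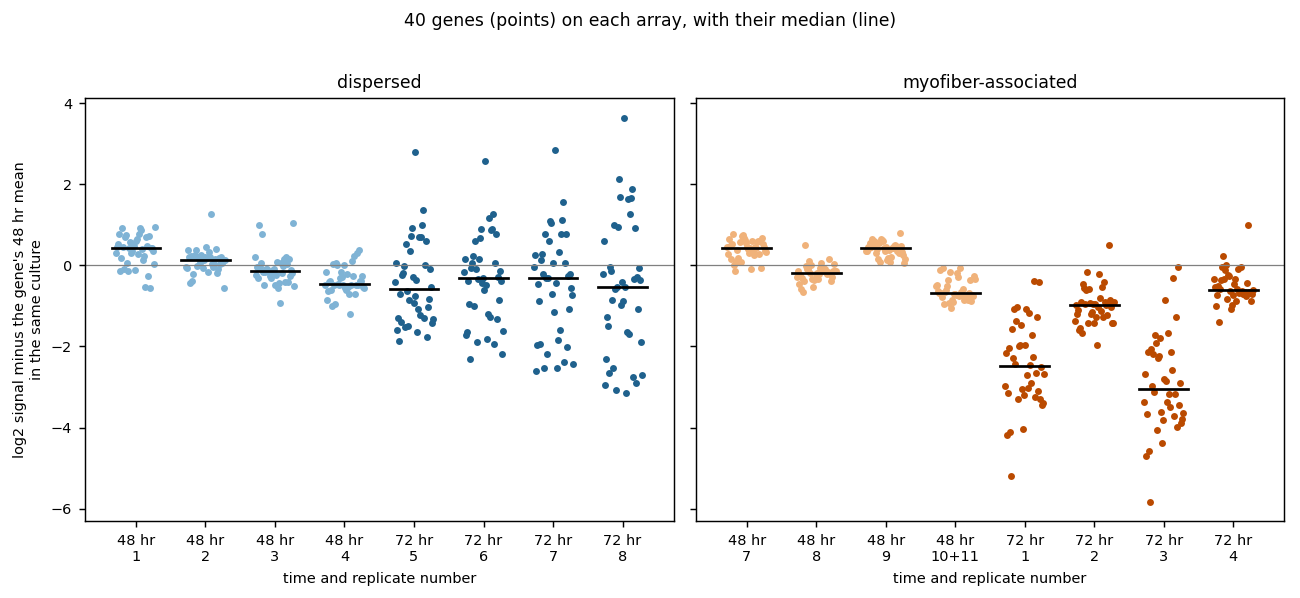
Log2 signal of the 40 tested genes (points) on each array, minus the mean of the gene's 48 hr arrays in the same culture, with the median over genes (black line). In dispersed cells the 72 hr medians lie between -0.58 and -0.31 with a wide scatter of genes, and in myofiber-associated cells they lie at -2.49, -0.98, -3.05 and -0.62.

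The difference between the cultures in this change was tested over all 16 arrays. Of the 40 genes, 4 were called, and in all 4 the change was more positive in dispersed cells: Myom3 (3.85 ± 0.41, adjusted p = 0.000269), Ryr1 (2.86 ± 0.54, adjusted p = 0.00527), Stac3 (1.98 ± 0.36, adjusted p = 0.00438) and Jph2 (1.90 ± 0.32, adjusted p = 0.00299). Over all genes, 1.09% were called with a more positive and 2.36% with a more negative change in dispersed cells. The median difference was 1.40, against -0.07 for all genes, and 35 of 40 values were above 0. Under other settings this median lay between 0.31 and 2.24. With only the column 1 arrays at 72 hr in the myofiber-associated group 23 genes were called (8.02% of all genes), and with only the column 2 arrays Myom3 alone was (0.29%). Leaving out 1 array gave 2 to 11 calls: 11 without myofiber-associated 72 hr replicate 4, 8 without myofiber-associated 48 hr replicate 10+11, and 2 without myofiber-associated 48 hr replicate 7 or dispersed 72 hr replicate 7. Myom3 was called under each of the 27 alternatives run, with a difference of 2.35 (normexp) to 4.06. Jph2 was called under 26 and Stac3 under 24. Ryr1 was called under 14, and was lost with slide row as a block, with no filter on low signal, with only the column 2 arrays and in 10 of the 16 fits that left out 1 array (any dispersed array other than 48 hr replicate 1, or myofiber-associated 72 hr replicate 1 or 48 hr replicate 7 or 9). At an adjusted p under 0.05, 6.27% of all genes had a more positive change in dispersed cells, and 7 further genes passed: Lmod3 (3.36 ± 0.73), Mylpf (2.75 ± 0.88), Ttn (2.44 ± 0.55), Cacng1 (2.01 ± 0.52), Actn3 (1.85 ± 0.53), Des (1.68 ± 0.40) and Mybpc1 (1.65 ± 0.46). For Mylpf, the probe used was well above background on 3 of 8 dispersed arrays, and its further probe, well above background on all 16, gave -0.13 ± 0.79.

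Some markers of the cell type lists were called in this difference as well. The change was more positive in dispersed cells for 2 of 19 adult muscle fiber markers (median 0.69), 1 of 6 fibroblast markers (1.09) and 1 of 7 endothelial markers (0.15), and more negative for 2 of 7 myoblast markers (-0.59, with all 7 values below 0). Of 10 early differentiation markers (median -0.67), 2 were called more positive, among them Myog (4.55 ± 0.54, adjusted p = 0.000482), and 1 more negative. No smooth muscle and pericyte, leukocyte or Schwann cell marker was called (medians 0.22, 0.43 and -0.44). The part of these lists in the result was not tested.

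Across the 40 genes, the change in dispersed and the change in myofiber-associated cells gave a Pearson r of 0.515 and a Spearman rho of 0.548, and 12 genes (30%) had a value above 0 in dispersed and below 0 in myofiber-associated cells. Over all genes tested the correlations were 0.517 and 0.372, and 18.4% of genes had that pair of signs. The genes share arrays, so this describes them only.

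Other genes of the same structures were listed for comparison. Of 31 further sarcomere and sarcomere assembly genes tested, 6 rose and 3 fell in dispersed cells, with a median of 0.21. The largest changes were in nebulette, Nebl, the myosin chaperone Unc45b (-2.11 ± 0.18, adjusted p = 0.00018) and the obscurin relative Obsl1 (1.84 ± 0.09, adjusted p = 2.93e-05). Nebl, a nebulin relative, was not well above background on any 48 hr array. By 72 hr it was 11.4-fold above its own dim 48 hr signal (adjusted p = 7.53e-05), which is not a firm lower limit. In myofiber-associated cells 1 of 31 rose, again Nebl (5.45 ± 0.37, adjusted p = 0.000479), with 1 of 4 spots at 48 hr well above background, and 1 fell, the actin-binding Synpo2 (-1.78 ± 0.32, adjusted p = 0.00881), with a median of -1.19. The change differed between the cultures for Obsl1, Synpo2 and Ankrd1.

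Of 19 further triad, membrane and calcium genes tested, 4 rose and 2 fell in dispersed cells, with a median of 0.07. Dysferlin, Dysf, which acts in membrane repair, fell (-1.47 ± 0.15, adjusted p = 0.000336), as did Sypl2, a triad protein (-1.15 ± 0.21, adjusted p = 0.00605, with 1 of 4 spots well above background at 72 hr), whereas Jsrp1, a junctional protein of the reticulum, rose (0.69 ± 0.11, adjusted p = 0.00278). None of the 19 was called in myofiber-associated cells, where the median was -0.76. At an adjusted p under 0.05, 6 of the 19 were lower, against 9.12% of all genes, and 2 were higher, against 13.4%. Of 14 widely expressed counterparts, 3 rose in dispersed cells, among them Nes (0.36 ± 0.06, adjusted p = 0.00281) and Flna (0.33 ± 0.05, adjusted p = 0.00197), none was called in myofiber-associated cells, and the medians were 0.17 and 0.16. At 48 hr 11 of these 14 were lower and 1 was higher in myofiber-associated than in dispersed cells, and at 72 hr 9 were lower.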

How the data were processed

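Total RNA was hybridized to one-color Agilent arrays, and the authors deposited each array's scanner output from Feature Extraction 11.0.1.1, in which gProcessedSignal is a background-subtracted intensity, with probe positions on mm9. The authors also deposited a table of log2 ratios for the 72 hr arrays, made with limma per the labels. Scale was checked against the scanner values (slopes of 0.918 to 0.941, so log2), and it served as an alternative. Per the study's methods, its values were normalized to the 48 hr arrays of each culture. Here, outlier spots were removed, log2 intensities were adjusted by loess (span 0.3 and 4 iterations, against the average 48 hr array of that culture) and quantile normalized, and the brightest probe stood for a gene. Genes with a median log2 signal of at least 5 were tested with limma 3.58.1 in R 4.3.3, with an adjusted p under 0.01 as the threshold. Time comparisons used the 8 arrays of a culture, and the others all 16. The time comparisons and their difference were also run on simulated data with independent spread for each gene. That setting lacks shifts that genes share on an array, so it does not check the counts given here. Array number and signal over background limit the precision, and p-values measure the spread between these preparations. Scanner files of the 2 slides carry different annotation releases, and names at 1849 spots differed, so those of the earlier release were used. The genes and lists were chosen with earlier results of these data known. By the naming rule, values on each array were given for the 4 called genes with the largest rises and falls and for paralogs, and up to 3 called genes from each other list. One gene that the rule names is not reported here.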

Additional observations from a re-analysis of the deposited data

Results flagged for a closer look

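In groups of 4 arrays, 5 of 164 sets of values (41 genes in 4 groups, 3.05%) had 1 array whose gap to its nearest neighbor, as a share of the whole range, exceeded Dixon's critical value, where chance alone marks about 1 in 20. These were Casq2 on dispersed 72 hr replicate 5 (0.956 of the range, low), Jph2 on myofiber-associated 72 hr replicate 4 (0.891, high), Cryab on the pooled myofiber-associated 48 hr array, replicate 10+11 (0.885, low), Stac3 on dispersed 48 hr replicate 1 (0.884, low) and Jph1 on dispersed 72 hr replicate 8 (0.868, low).

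The change from 48 to 72 hr differed between the cultures in limma's test of the difference for Myom3 (3.85 on the log2 scale, dispersed minus myofiber-associated), Ryr1 (2.86), Stac3 (1.98) and Jph2 (1.90). In dispersed cells each was higher on all 4 arrays at 72 hr. In myofiber-associated cells Myom3 was lower on all 4 arrays at 72 hr, whereas the times overlapped for Ryr1, Stac3 and Jph2. Myom3 was called under all 27 alternatives run, with 2.35 under normexp, Jph2 under 26 and Stac3 under 24. Ryr1 was called under 14 of 27 and was lost with slide row as a block, with no filter on low signal, with only the column 2 arrays and in 10 of 16 fits with 1 array left out. Slide and culture cannot be told apart in this test.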

How the results depend on the processing

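No paired analysis was possible between times or between cultures, because the 2 groups of each such comparison share no replicate numbers. In the test of the difference in change, some numbers recur between the 72 hr group of a culture and the 48 hr group of the other. The labels give these as separate samples. In dispersed cells the rises numbered 7, and 8 at an adjusted p under 0.05 and 2 in 1 fit of all 16 arrays. The falls numbered 11, and 16 at an adjusted p under 0.05, 2 with no filter on low signal, 0 in the 16-array fit and 1 to 9 with 1 array left out. In myofiber-associated cells the falls numbered 0, and 16 at an adjusted p under 0.05, 20 in the 16-array fit, 29 with only the column 1 arrays at 72 hr and 0 to 3 with 1 array left out. The difference between the cultures was called more positive in dispersed cells for 4 genes, and for 11 at an adjusted p under 0.05, 23 with only the column 1 arrays, 1 with only the column 2 arrays and 2 to 11 with 1 array left out. At 48 hr 0 genes were called lower in myofiber-associated cells, 1 (Casq2) at an adjusted p under 0.05 and 0 to 1 with 1 array left out. At 72 hr 38 genes were called higher in myofiber-associated cells, and 34 to 39 under other settings and 35 to 38 with 1 array left out. The median difference at 72 hr was 3.68 with only the column 1 arrays. The column settings, the bounds with arrays left out and a later release's gene names were chosen after seeing the data.

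Medians kept their sign under every alternative run, between -0.50 and -0.32 in dispersed cells, -2.75 and -0.81 in myofiber-associated cells and 0.31 and 2.24 for their difference. No called change of a single gene in the time comparisons or between the cultures turned its direction under the alternatives run. With normexp, Myom3 gave 1.52 in dispersed cells, against 2.96, and 2.35 for the difference between the cultures, against 3.85, and was called in both. Casq1 gave -0.82 in dispersed cells with normexp, against -2.01, and was not called. Values near 0 did turn. In dispersed cells Xirp1 gave -0.0061 with normexp, -0.0034 with 75th percentile scaling and -0.088 to 0.079 with 1 array left out, and Jph1 gave 0.022 with normexp and -0.21 to 0.11 with 1 array left out. Actn2 gave 0.20 with the mean of its probes, 1 of which was not well above background. With 1 array left out, Csrp3 gave -0.38 to 0.20, Xirp2 -0.37 to 0.023 and Srl -0.25 to 0.021. For Casq2 the value was -0.23 in myofiber-associated cells with only the column 1 arrays, and 0.30 between the cultures at 72 hr with only the column 2 arrays and -0.44 to 0.037 with 1 array left out.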
